A study of Rattus norvegicus with 3 samples.

Results

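The genes described here encode enzymes that supply deoxynucleotides for DNA synthesis and the folate carrier and folate enzymes that serve them. They were 9 genes chosen by name, namely Rrm1, Rrm2, Tyms, Tk1, Dck, Dut, Shmt1, Shmt2 and Slc19a1, and their values played no part in the rule. The choice was, however, made with earlier results of these data known, so the set is not a blind one. A probe named by its RefSeq accession was found for 8 of the 9, of 13301 genes named in all, and no probe was named for Shmt1. The 8 genes were measured by 12 probes, 3 of them for Rrm1, 2 each for Rrm2 and Dut and 1 each for the others.

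Expression was measured in 3 cell populations of F344 rats, with 1 array each. COS1NR is an osteosarcoma line and MFH1NR a line of malignant fibrous histiocytoma (MFH). Both were established from tumors induced with the carcinogen 4-HAQO, and per the methods of the study both carry a p53 mutation. Mesenchymal stem cells (MSCs) were grown from femur bone marrow by adhesion to plastic and were not sorted, and their medium held more serum than that of the lines. Each line is a single line grown in culture, and the sources used here state neither the age of the rats nor any treatment of the cells.

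Deoxynucleotides are made by 2 routes. In de novo synthesis, ribonucleotide reductase, built of the large subunit Rrm1 and the small subunit Rrm2, converts ribonucleotides to deoxyribonucleotides, and thymidylate synthase (Tyms) methylates dUMP to dTMP with a folate as the carbon donor. In salvage, thymidine kinase (Tk1) and deoxycytidine kinase (Dck) phosphorylate deoxynucleosides taken up from outside the cell. Reduced folates enter cells through the carrier Slc19a1, as does methotrexate, an antifolate drug used against osteosarcoma. Rrm2, Tyms and Tk1 are known for expression that is highest in S phase.

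The level of a probe is given as its processed intensity divided by the 75th percentile of all noncontrol spots of its array, so that a level of 1 stands for that percentile. A probe is called well above background by the image software. With 1 array per cell type no difference could be tested, and a difference of at least 2-fold between levels was counted instead. Per array, between 56.6% and 59.7% of the spots were well above background and no spot was saturated. The arrays of COS1NR and MFH1NR lay on 1 slide and that of MSCs on another, so that for each difference from MSCs the slide and the cells cannot be told apart. The comparisons of COS1NR and of MFH1NR with MSCs share the MSC array, so a deviation of that array enters both. Within an array, the log2 levels of replicate spots of a probe had a median SD between 0.0470 and 0.0577. For 1891 genes, the brightest probe and the next were both well above background on all arrays. The log2 differences from MSCs that both gave lay a median of 0.28 apart for COS1NR and 0.31 apart for MFH1NR. Dimmer probes were not part of these medians. The MSC array showed the stromal markers Thy1, Nt5e, Eng, Cd44, Pdgfrb, Vim and Col1a1 well above background, while Thy1 and Eng in COS1NR and Eng in MFH1NR were not. It also showed all 10 macrophage markers of a list that holds Ptprc, Csf1r and C1qa, with a summed level of 114.7, while COS1NR showed 7 of 10, summing to 9.52, and MFH1NR 6 of 10, summing to 4.69. Ptprc, C1qa and Itgam were not well above background in either line. The part of these cells in the differences from MSCs was not tested. In such bulk samples, fewer cells of a type and less RNA per cell cannot be told apart.

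Stretches just before the RefSeq starts are shown for 5 members, chosen after their values were seen as examples: Rrm1 of the reductase, Tyms of thymidylate synthesis, Tk1 and Dck of salvage, and Shmt2, which was higher in COS1NR alone. Those of Dut and Slc19a1 are not printed. They are taken from RefSeq on GRCr8, 5′ to 3′ on the strand of the gene, and capitals mark matches to a short motif.
Rrm1, chr1:166235684-166235903, plus strand: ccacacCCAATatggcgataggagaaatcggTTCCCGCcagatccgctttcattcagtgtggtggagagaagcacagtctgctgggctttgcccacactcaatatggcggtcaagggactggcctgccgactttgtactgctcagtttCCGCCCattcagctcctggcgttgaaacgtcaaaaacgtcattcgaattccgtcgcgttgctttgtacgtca
Tyms, chr9:120776084-120776163, minus strand: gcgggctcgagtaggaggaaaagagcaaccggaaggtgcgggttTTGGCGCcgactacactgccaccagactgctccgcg
Tk1, chr10:103544778-103544857, minus strand: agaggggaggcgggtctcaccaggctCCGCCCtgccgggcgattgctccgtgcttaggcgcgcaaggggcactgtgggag
Dck, chr14:19610327-19610461, minus strand: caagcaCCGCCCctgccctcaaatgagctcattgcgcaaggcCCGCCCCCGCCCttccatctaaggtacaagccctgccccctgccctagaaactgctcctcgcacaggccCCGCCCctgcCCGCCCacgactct
Shmt2, chr7:65249568-65249647, minus strand: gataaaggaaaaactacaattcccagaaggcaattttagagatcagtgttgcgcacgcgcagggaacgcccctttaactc

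The motifs were searched on both strands from 250 bases before to 50 bases after each start, in 33469 windows. A window was found for 8 of the 9 members, and Dut had 2 of the 9 windows. The member without a window was Rrm2, which was thus not searched for any motif. The E2F core, TTNNCGC with each N being C or G, occurred in 9.52% of all windows. Among the members it began 189 bases before the start of Rrm1 and 36 bases before that of Tyms, and Rrm1 held another match after its start. The window of Shmt1, which has no measurement, held it too. The GC box GGGCGG, found in 33.1% of all windows, occurred in those of Rrm1, Tk1, Dck, Slc19a1 and Shmt1 and in 1 of the 2 windows of Dut. The CCAAT box occurred in 37.5% of all windows and in those of Rrm1 and Shmt1, and no match of it overlapped one of the E2F core in the member windows. The CHR element TTTGAA was present in 18.3% of all windows, in Dck and in the second window of Dut, outside the stretches printed. The TATA box TATAAA was in 14.2% of all windows and in no member window. None of these motifs occurred in the window of Shmt2. A match is a match of letters only, and these arrays hold no measurement of binding.

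Compared with MSCs, the levels of all 8 measured genes were at least 2-fold higher in COS1NR. Of the 10010 genes used, 21.7% were that much higher in the same comparison and 22.3% that much lower. In MFH1NR, 7 of the 8 were at least 2-fold higher than in MSCs, where 20.8% of all genes were, and Shmt2 was lower by as much, where 23.2% of all genes were. The median log2 difference of the 8 genes was 1.77 in COS1NR and 2.07 in MFH1NR, against 0.11 and 0.01 over all genes. Dck counts among the genes used only through the lines, since its probe was not well above background in MSCs. Over the other 7 genes the medians were 1.65 and 1.83. At 3-fold, 5 of the 8 were higher than MSCs in COS1NR, where 11.1% of all genes were, and 5 in MFH1NR, where 11.7% were. Those in both numbered 4, against 5.54% of all genes, and at 2-fold 7, against 12.2%, each count resting on the shared MSC array. These counts include Dck. Among the 7932 genes well above background on all arrays, 7 of the 7 remaining members were at least 2-fold higher in COS1NR (20.7% of these genes), 6 in MFH1NR (18.9%) and 6 in both (12.1%). At 3-fold they numbered 4 (9.08%), 4 (8.95%) and 3 (4.89%).

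**Figure D1:**
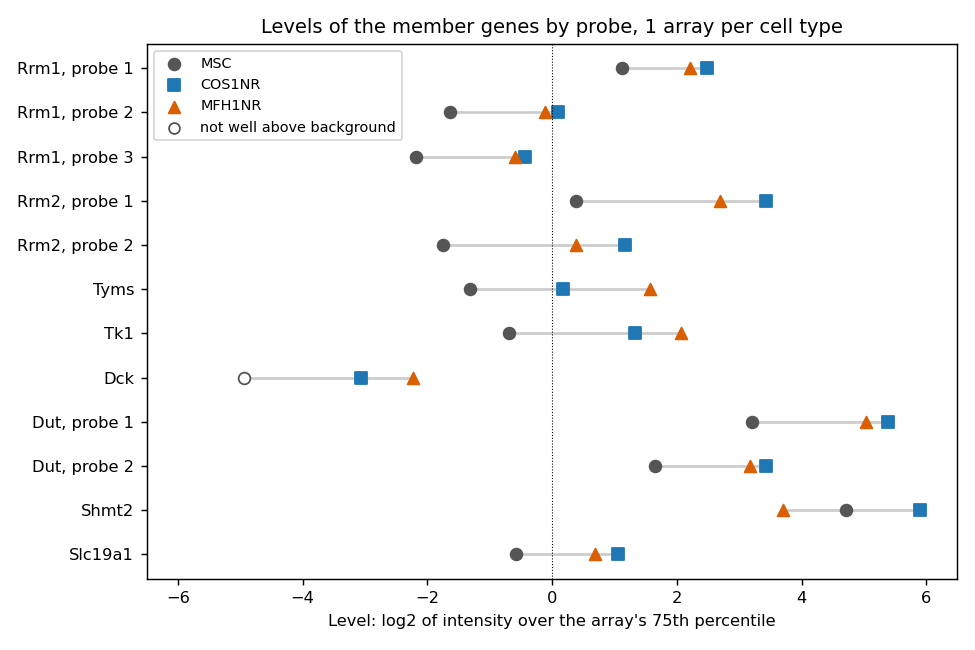
Level of each of the 12 member probes on the arrays of MSC, COS1NR and MFH1NR, as log2 of the intensity over the 75th percentile of the array, with 1 point per array and open points where the probe was not well above background. The MSC point lies lowest for every probe except that of Shmt2, for which MFH1NR lies lowest.

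Rrm2, the small subunit of ribonucleotide reductase, had the largest difference in COS1NR of the 7 members with a measured fold, Dck having only a limit. By its brighter probe the level was 1.30 in MSCs, compared with 10.8 in COS1NR and 6.46 in MFH1NR. By its other probe it was 0.296, 2.25 and 1.30 in the same order. Both probes placed MSCs lowest and COS1NR highest. The folds over MSCs were 8.29 and 7.59 in COS1NR and 4.95 and 4.39 in MFH1NR. Of all genes used, 260 had a larger log2 difference than Rrm2 in COS1NR and 631 in MFH1NR.

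The large subunit Rrm1 differed less. Its 3 probes had levels of 2.17, 0.320 and 0.221 for MSCs, then 5.61, 1.07 and 0.737 for COS1NR, and 4.62, 0.923 and 0.662 for MFH1NR. Every probe placed MSCs lowest and COS1NR highest. The folds over MSCs ran from 2.58 to 3.34 in COS1NR and from 2.13 to 3.0 in MFH1NR, and the brightest probe gave the smallest one in each line. The log2 difference of Rrm2 exceeded that of Rrm1 by 1.68 in COS1NR and by 1.22 in MFH1NR by the brightest probes, those of Rrm1 with the smallest folds. Over all pairs of their probes, the gap ran from 1.19 to 1.68 in COS1NR and from 0.55 to 1.22 in MFH1NR. Rrm2b, the p53-inducible form of the small subunit, was dim on every array, with levels of 0.0547 in MSCs, against 0.0971 in COS1NR and 0.0822 in MFH1NR. Its folds over MSCs were 1.78 and 1.5. Without scaling between arrays, its log2 differences passed 2-fold, at 1.22 in COS1NR and 1.34 in MFH1NR, as did that in MFH1NR with spike-in scaling, at 1.08. After normexp correction they were 0.07 in COS1NR and -0.17 in MFH1NR.

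Around the reductase, the list of its partners held Rrm1, Rrm2, Rrm2b and the thioredoxin and glutaredoxin genes that return electrons to it. Of 10 listed genes, 9 were used. In COS1NR, 4 were at least 2-fold higher than MSCs and none lower, and in MFH1NR 3 and none. Those outside the members were Txnrd2, the mitochondrial thioredoxin reductase, with folds of 2.44 in COS1NR and 1.54 in MFH1NR, and Gsr, glutathione reductase, with 2.98 and 2.25. Thioredoxin itself (Txn1) had levels of 90.9 in MSCs, compared with 150.6 in COS1NR and 122.9 in MFH1NR, within 2-fold of each other at this scaling. The median log2 difference of the list was 0.83 in COS1NR and 0.59 in MFH1NR. The counts of this list hold at this scaling. Without scaling between arrays, Rrm2b and Txn1 also passed 2-fold upward in both lines, and Txnrd2 and Glrx in MFH1NR.

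Dut, the dUTPase that hydrolyzes dUTP to dUMP and so both feeds Tyms and keeps uracil out of DNA, was bright on every array. By its brighter probe the level was 9.20 in MSCs, against 41.6 in COS1NR and 32.7 in MFH1NR. The other probe, named by the same accession, gave 3.15, 10.7 and 8.98. MSCs were lowest and the lines close to each other by both probes. The folds over MSCs were 4.52 and 3.42 in COS1NR and 3.56 and 2.85 in MFH1NR. Dut stood on a list of enzymes that hydrolyze deoxynucleotides or break down nucleosides, of which 12 of 20 genes were used. In COS1NR, 7 of the 12 were at least 2-fold higher than MSCs and none lower, and in MFH1NR 5 were higher and 3 lower. Over all genes used, 21.7% were that much higher in COS1NR and 22.3% lower, and in MFH1NR 20.8% and 23.2%. Of the 7, Cda, Dpyd and Upb1 were not well above background in MSCs, so they entered only through a line in which they were high. Dpyd and Upb1 exceeded background in COS1NR alone. Dctpp1, which degrades dCTP and its modified forms, had levels of 6.56 in MSCs, compared with 37.1 in COS1NR and 19.3 in MFH1NR. Itpa, which removes inosine triphosphate, had folds of 2.64 and 2.76. Cytidine deaminase (Cda) stood at least 73.9-fold above MSCs in COS1NR and at least 12.9-fold in MFH1NR, its MSC spot being too dim to be called above background. No probe was named for Samhd1, the dNTP hydrolase, or for the dCMP deaminase Dctd.

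Tyms had a level of 0.402 in MSCs, against 1.13 in COS1NR and 2.96 in MFH1NR, by 1 probe. Its fold over MSCs was 2.81 in COS1NR and 7.36 in MFH1NR, the largest there of the 7 members with a measured fold. MSCs were lowest and MFH1NR highest. Of all genes used, 1228 had a larger log2 difference than Tyms in COS1NR and 393 in MFH1NR.

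Shmt2, the mitochondrial serine hydroxymethyltransferase that passes a carbon of serine to folate, was the member on which the lines went apart. Its level was 26.3 in MSCs, against 59.9 in COS1NR and 13.0 in MFH1NR. COS1NR was thus 2.28-fold higher than MSCs and MFH1NR 2.02-fold lower, with log2 differences of 1.19 and -1.02. The difference in MFH1NR stayed under 2-fold with other scalings, at -0.26 without scaling, -0.52 with spike-in scaling, -0.80 with median scaling and -0.83 after quantile normalization. That in COS1NR did so with spike-in scaling, at 0.87. Mthfd2, the next enzyme of the mitochondrial path, had levels of 6.86 in MSCs, compared with 4.96 in COS1NR and 5.95 in MFH1NR by the brightest of 3 probes. The small difference of MFH1NR from MSCs, -0.20 in log2, turned to 0.55 without scaling, 0.29 with spike-in scaling, 0.01 with median scaling and 0.06 after normexp correction. Its dimmest probe put COS1NR 2.06-fold below MSCs. Gcsh, a protein of the glycine cleavage system that also loads mitochondrial folate, was 3.56-fold above MSCs in COS1NR and 1.42-fold in MFH1NR. The cytosolic trifunctional enzyme Mthfd1 was 2.56-fold above its MSC level of 5.08 in COS1NR and 1.97-fold in MFH1NR. Serine itself is made from a glycolytic intermediate by Phgdh, Psat1 and Psph. Phgdh had a level of 80.1 in MSCs, only 2.92 in COS1NR and 98.9 in MFH1NR, so COS1NR was 27.4-fold lower than MSCs where its Shmt2 was higher. Psat1 and Psph lay within 2-fold of MSCs in each line at this scaling.

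The list of folate interconversion and one-carbon enzymes, which includes Tyms and Shmt2, had 18 of 25 genes used. In COS1NR, 7 were at least 2-fold higher than MSCs and 2 lower, and in MFH1NR 2 were higher and 2 lower. These counts hold at this scaling. Without scaling between arrays, Mthfd1, Mtfmt, Gart, Mtr, Mtrr, Gcsh and Mthfs also passed 2-fold upward in MFH1NR, and Mtfmt in COS1NR. Of all genes, 41.6% were then that much higher in MFH1NR and 32.9% in COS1NR. At the scaling used, the median log2 difference of the list was 0.52 in COS1NR and 0.30 in MFH1NR, and without the members 0.27 and 0.30. In MFH1NR the genes past 2-fold downward at this scaling were Shmt2 and Mthfd2l, the latter with a log2 difference of -1.19 by its brighter probe. In COS1NR that of Mthfd2l was 1.51 by this probe and 0.94 by the dimmer one. Without scaling between arrays, the brighter probe of Mthfd2l had intensities of 91.6 in MSCs and 67.6 in MFH1NR, under 2-fold apart.

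**Figure D2:**
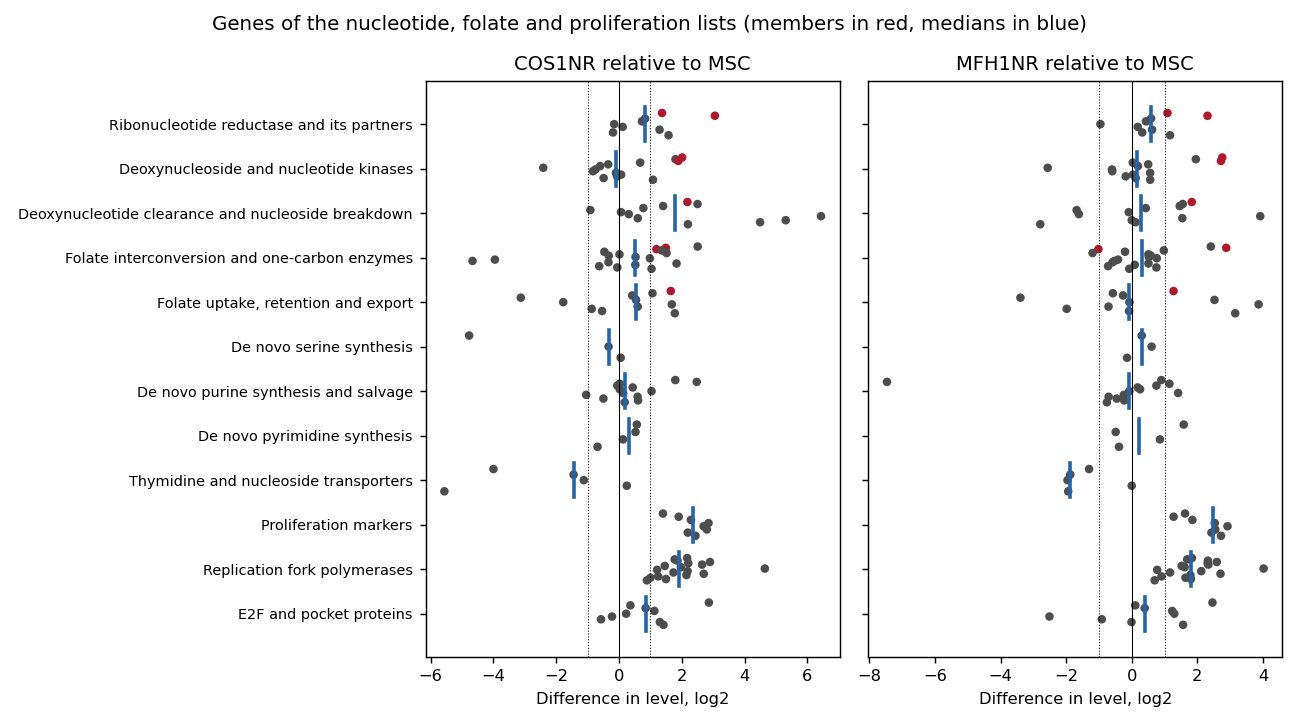
Log2 difference in level of each gene used of 12 lists, in COS1NR (left) and MFH1NR (right) relative to MSC, with members in red, list medians as blue bars and dotted lines at 2-fold. The proliferation and replication lists lie almost wholly to the right, with medians from 1.80 to 2.48, while most purine and kinase genes lie between the dotted lines.

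Slc19a1, which carries reduced folates and methotrexate into the cell, had a level of 0.667 in MSCs, against 2.09 in COS1NR and 1.61 in MFH1NR. MSCs were lowest, with folds of 3.13 and 2.42 for the lines. The proton-coupled folate carrier Slc46a1 had levels of 0.509 in MSCs, compared with 1.06 in COS1NR and 0.342 in MFH1NR by its brighter probe. The folate receptor Folr2, which is known from macrophages, had a level of 4.97 in MSCs, with 0.567 and 0.473 for COS1NR and MFH1NR, beside the macrophage markers given above. Ggh, the hydrolase that trims the polyglutamate tails of folates and of methotrexate, had 9.85 in MSCs, 14.3 in COS1NR and 56.6 in MFH1NR. MFH1NR was thus 5.75-fold above MSCs and 3.95-fold above COS1NR. The single probe of Fpgs, the enzyme that adds these tails, was not well above background on any array, so no ratio is given. The exporters Abcc2 and Abcg2 stood 3.20-fold and 3.43-fold above MSCs in COS1NR, 14.6-fold and 8.90-fold in MFH1NR, and started from dim levels of 0.0948 and 0.203 in MSCs. Abcc1, from a level of 8.33 in MSCs, was 3.43-fold lower in COS1NR, with a fold of 0.952 in MFH1NR. Abcc4 was 1.83-fold lower in COS1NR and 3.95-fold lower in MFH1NR by its brighter probe. The folds of Abcc3 by its brighter probe were 1.51 and 0.612, and those of Abcc5 0.687 and 0.944. Of the 13 genes listed for folate uptake, retention and export, 11 were used, and 4 were at least 2-fold higher and 2 lower than MSCs in each line.

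In the salvage route, Tk1, the cytosolic kinase of thymidine, had a level of 0.621 in MSCs, against 2.50 in COS1NR and 4.21 in MFH1NR. The order of the arrays was that of Tyms, and the folds over MSCs were 4.02 and 6.77. Dck was dim, with intensities of 19.1 in MSCs, compared with 92.7 in COS1NR and 213 in MFH1NR. Its probe was not well above background in MSCs, so its own dim level there was taken as the limit, which put COS1NR at least 3.69-fold and MFH1NR at least 6.59-fold above it on the processed intensities. These limits hold for that background correction and floor only. With all levels floored at the highest background limit of the arrays, the log2 differences were 1.66 and 2.49. With a normexp background correction, the log2 difference of Dck was 0.53 in COS1NR, under 2-fold, and 1.01 in MFH1NR.

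The mitochondrial counterpart of Tk1, Tk2, had levels of 2.49 in MSCs, against 8.66 in COS1NR and 9.66 in MFH1NR by its brighter probe, with folds of 3.47 and 3.88, and of 2.33 and 2.26 by the other. Dguok, the mitochondrial deoxyguanosine kinase, had folds of 1.59 and 1.02. Thymidylate kinase (Dtymk), which takes dTMP from both routes to dTDP, had levels of 8.13 in MSCs, compared with 6.39 in COS1NR and 11.5 in MFH1NR, within 2-fold of each other at this scaling. Without scaling, MFH1NR passed 2-fold over MSCs and over COS1NR for Dtymk, at 1.26 and 1.21 in log2, and with spike-in scaling over COS1NR, at 1.66. Nme1 and Nme2, which form the triphosphates, were bright and nearly equal on the arrays, with log2 differences from MSCs between -0.18 and 0.07. Cmpk2, an interferon-inducible mitochondrial kinase, was lower in the lines, with levels of 0.706 in MSCs, against 0.132 in COS1NR and 0.120 in MFH1NR. Of 14 kinases used, including Tk1 and Dck, 4 were at least 2-fold higher in COS1NR and 1 lower, and in MFH1NR 3 were higher and 1 lower. The median log2 difference of the kinases was -0.08 in COS1NR and 0.15 in MFH1NR.

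Deoxynucleosides reach these kinases through transporters, and of 5 transporter genes used 4 were at least 2-fold lower than MSCs in each line and none higher. The equilibrative transporter Slc29a1 had a level of 34.1 in MSCs, compared with 2.13 in COS1NR and 13.8 in MFH1NR. The log2 difference from MSCs was thus -4.0 in COS1NR and -1.30 in MFH1NR. The levels of Slc29a2 were 0.201, 0.0737 and 0.0549 in the same order. The concentrative transporter Slc28a2 had 0.884 in MSCs and 0.231 in MFH1NR. In COS1NR, where its spot was not well above background, it lay at least 23.3-fold below MSCs. These named transporters thus lay below MSCs, and Tk1 and Dck above, Dck only by a limit. That contrast does not extend to the kinases as a list, whose medians were -0.08 in COS1NR and 0.15 in MFH1NR. The transporter Slc28a1 had folds over MSCs of 1.19 in COS1NR and 1.0 in MFH1NR.

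**Figure D3:**
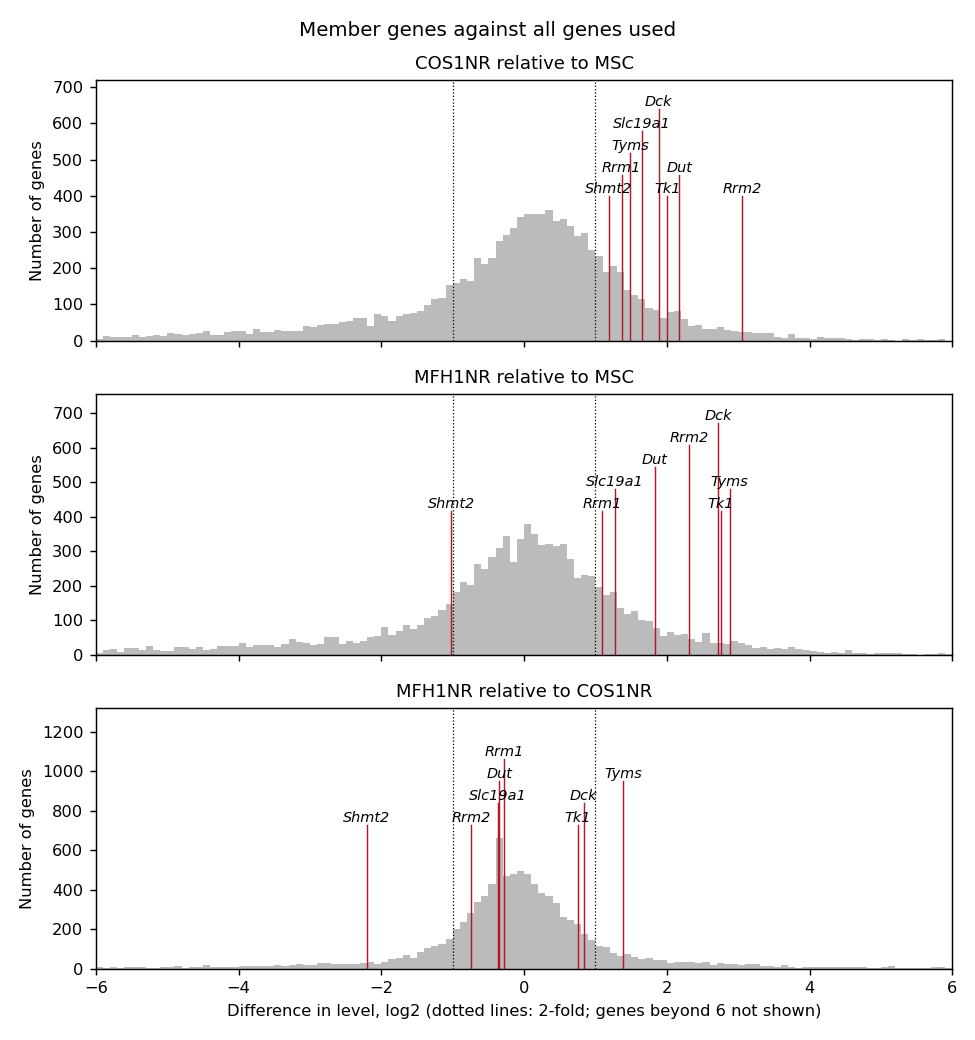
Distribution of the log2 difference in level over the 10010 genes used (gray, number of genes per bin) in 3 comparisons, with each member gene as a labeled red line and dotted lines at 2-fold. Against MSC the members lie in the right flank, except Shmt2 in MFH1NR at -1.02, and between the lines they lie on both sides of 0.

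Between the lines, which shared a slide, the members did not go one way. Of the 8 genes, 2 were at least 2-fold apart, where 29.9% of all genes were. Tyms was 2.62-fold higher in MFH1NR. Shmt2 was 4.61-fold higher in COS1NR and was the 1 member over 3-fold apart, as 18.7% of all genes were. Which members passed 3-fold depended on the scaling. With spike-in scaling, the log2 differences of MFH1NR from COS1NR were -1.40 for Shmt2, under 3-fold, and 2.20 for Tyms and 1.65 for Dck, over it. Without scaling, that of Tyms was 1.75, over 3-fold too. Tk1 and Dck were higher in MFH1NR by 1.68-fold and 1.79-fold, and Rrm2 was higher in COS1NR by 1.67-fold by its brighter probe and 1.73-fold by the other. For Rrm1, Dut and Slc19a1, the levels in COS1NR were 1.21, 1.27 and 1.29 times those in MFH1NR, and these small differences turned toward MFH1NR with spike-in scaling, as did that of Rrm2, at 0.07 in log2. Without scaling, those of Rrm1 and Dut turned too, to 0.08 and 0.02. The median log2 difference of MFH1NR from COS1NR was -0.31 for the members and -0.11 for all genes.

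Proliferation and replication genes are given beside the members, several of which are S phase genes. Of 10 proliferation markers 8 were used, among them Aurka, Birc5, Foxm1 and Pcna, and all were at least 2-fold higher than MSCs in each line. Their median log2 difference was 2.36 in COS1NR and 2.48 in MFH1NR. Pcna, the sliding clamp of the replication fork, had levels of 5.47 in MSCs, against 14.4 in COS1NR and 16.9 in MFH1NR by its brighter probe. Of 18 replication fork genes used, 16 were at least 2-fold higher in COS1NR and 15 in MFH1NR, with medians of 1.91 and 1.80. The largest increases past 2-fold in each line were those of Pole2, a polymerase epsilon subunit, with log2 differences of 4.64 and 4.02, Prim2, a primase subunit, with 2.90 and 2.59, and Rfc4, of the clamp loader, with 2.70 and 2.71. The members' medians of 1.77 and 2.07 lay near those of the replication fork genes, and whether the members differed beyond the share of dividing cells was not tested. No probe was named for Mki67.

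The bases themselves are made by the de novo purine and pyrimidine pathways. Of 13 purine genes used, 3 were at least 2-fold higher than MSCs and 1 lower in COS1NR, and 2 were higher and 1 lower in MFH1NR. Their median log2 difference was 0.18 in COS1NR and -0.08 in MFH1NR. Gart and Atic, the purine enzymes that use a folate, had folds of 0.962 and 2.05 for COS1NR, with 1.68 and 0.948 for MFH1NR. Of 4 pyrimidine genes used, none passed 2-fold in COS1NR, and in MFH1NR Cad, which starts the pathway, did so with a fold of 3.0 by its brighter probe.

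**Figure D4:**
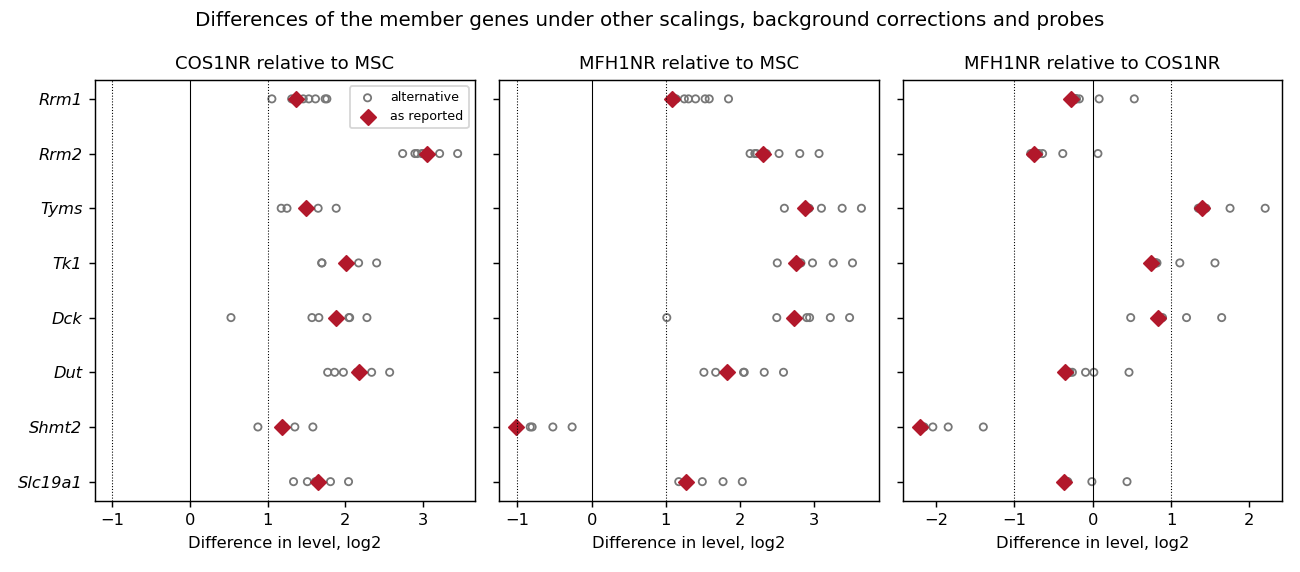
Log2 difference in level of each of the 8 measured member genes in 3 comparisons, as reported (red diamonds) and under 8 or 9 other scalings, background corrections or probe choices (open circles), with dotted lines at 2-fold. Against MSC all circles stay on the side of the diamond, and between the lines those of Rrm1, Rrm2, Dut and Slc19a1 cross 0.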

How the data were processed

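Gene expression was measured on 1 Agilent whole rat genome array each for MSCs, COS1NR and MFH1NR. The authors deposited spot intensities from Agilent Feature Extraction, version 10.5.1.1 per the file headers and 9.1 per the labels, background-subtracted and detrended on each array and with no scaling from array to array. The deposited series table held the same intensities. The array design was annotated on rn4.

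Control and outlier spots were left out, log2 intensities of spots of 1 probe were averaged, and the 75th percentile of the array was subtracted. Of 20503 probes with a RefSeq accession, 16815 were named by the RefSeq gene table of GRCr8. Where a gene had several probes, the one with the highest mean log2 level stood for it, and the gene entered if this probe exceeded background on any array (10010 genes). A fold against an array where the probe was not well above background is a bound, with the higher of the probe's own level and the lowest level well above background there. The gene table also lists pseudogenes of Rrm1, Tk1, Dck, Dut and Shmt2, and probe sequences were not used here, so cross-hybridization was not tested.

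The members and lists were chosen with earlier results of these data known. Named are the members, genes fixed by role, and up to 3 genes of each list with the largest increase and decrease at least 2-fold in both lines. Txnrd2, Txn1, Glrx, Itpa, Dpyd, Upb1, Gcsh, Mthfd2l, Mtfmt, Mtr, Mtrr, Mthfs, Abcc1, Abcc3, Abcc4, Abcc5, Psat1, Psph, Nme1, Nme2, Slc28a1, Cad, Prps2 and Xdh were named after their values were seen, and the motifs were chosen then too. Values of some other listed genes are not reported here. The counting step was tested on simulated data. Precision is limited by the number of arrays. Python 3.11.15, numpy 2.4.6, pandas 2.3.3, matplotlib 3.10.9, R 4.3.3 and limma 3.58.1 were used.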

Additional observations from a re-analysis of the deposited data

Results flagged for a closer look

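Among the members and the genes fixed by role, and leaving out the other genes of the lists, 3 genes had the lines on opposite sides of MSCs by more than the typical gap between probes for 1 gene. That gap is the median over genes whose probes were well above background on all arrays. With 1 array per cell type, the difference between the lines was not tested. Shmt2 had log2 differences from MSCs of 1.19 in COS1NR and -1.02 in MFH1NR. Slc46a1, the proton-coupled folate carrier, had 1.06 in COS1NR and -0.57 in MFH1NR. Its dimmer probe gave 0.94 and -0.73. Without scaling between arrays its value in MFH1NR turned to 0.18. Dtymk had -0.35 in COS1NR and 0.50 in MFH1NR, and the former turned to 0.05 without scaling.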

How the results depend on the processing

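No paired analysis was possible because each cell type has 1 array. Under the 8 or 9 alternatives that gave a log2 difference for each member, none turned the direction of a member's difference of at least 2-fold. Without scaling between arrays, the median of all genes lay at 0.51 in COS1NR and 0.77 in MFH1NR relative to MSCs in log2, and with spike-in scaling, based on 7 probes, at -0.20 and 0.51. Relative to the median of all genes, which by construction is the same under every scaling by a constant per array, the median of the members lay between 1.46 and 1.73 in COS1NR and between 1.60 and 2.10 in MFH1NR under the quantile, background, probe and filter settings. The number of members at least 2-fold apart between the lines was 4 instead of 2 both without scaling, where 32.2% of all genes were, and with spike-in scaling, where 44.0% were. By second probes, which exist for only 3 members, 3 were at least 2-fold above MSCs in COS1NR (16.9% of all genes with such a probe), 3 in MFH1NR (18.0%) and 3 in both (9.43%), and 0 were that far apart between the lines (27.8%). At a 3-fold threshold, 5 members were higher than MSCs in COS1NR, where 11.1% of all genes were, 5 in MFH1NR (11.7%) and 4 instead of 7 in both (5.54%), a count in which the shared MSC array enters on each side, and 1 was apart between the lines (18.7%). The other settings left these counts within 1.5 times. The normexp correction, run on the median spot signal because the files hold no mean signal, and a floor at the highest background limit were added after the data were seen. No replicate could be left out.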

Other observations

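E2f1, a transcription factor of S phase genes, was listed with other E2F and pocket protein genes. Its level was 1.89 in MSCs, against 13.7 in COS1NR and 10.4 in MFH1NR by its brighter probe. The folds of E2f1 over MSCs were 7.26 and 5.50 by that probe and 4.67 and 3.28 by the dimmer one. The E2f1 partner Tfdp1 had levels of 6.27, 13.7 and 14.7 in the same order, and folds over MSCs of 1.44 and 1.48 by its dimmer probe. Whether E2f1 acts on the members in these cells was not tested. Of 9 E2F and pocket protein genes used, 4 were at least 2-fold higher than MSCs in COS1NR and none lower, and in MFH1NR 4 were higher and 1 lower. The lower one was Rb1, at 1.97 in MSCs, 1.69 in COS1NR and 0.346 in MFH1NR, named after its value was seen.

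The 5 genes whose pair of log2 differences from MSCs lay nearest to the members' median pair, by Euclidean distance over the 2 differences, were Dnaaf8, RT1-CE10, Lrrc8e, Chaf1b and Zmym3, at distances from 0.06 to 0.08. Dnaaf8 and RT1-CE10 were not well above background on every array.

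In the purine list, Prps2, which makes the ribose phosphate donor, had a level of 1.43 in MSCs and 7.94 in COS1NR. In MFH1NR its spot was not well above background and lay at least 47.3-fold below MSCs. Its paralog Prps1 was 3.46-fold above MSCs in COS1NR and 1.87-fold in MFH1NR. Xdh, an enzyme of purine breakdown, had 4.47 in MSCs, 20.4 in COS1NR and 0.646 in MFH1NR. These values were picked out after they were seen.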
